A study of Homo sapiens with 3 samples.

Results

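A set of 10 genes that cells switch on when oxygen runs low was followed through the single-cell RNA libraries of breast cancer spheroids: ANKRD37, NDRG1, ADM, VEGFA, CA9, BNIP3, EGLN3, PDK1, DDIT4 and KDM3A. They were taken by symbol, 10 of the 22499 genes with a symbol in the count tables, and all 10 symbols were found. The set was built around ANKRD37, which an earlier look at these data had placed among the genes lowest in cocultured relative to monocultured sensitive cells, so its values in that contrast are a description and not a finding.

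CAMA-1 is an estrogen receptor positive luminal breast cancer line. Spheroids of 2000 plated cells were made from Venus-labelled sensitive CAMA-1 cells (100% sensitive), from mCherry-labelled CAMA-1 cells that had been made ribociclib resistant by long exposure to the drug (100% resistant), or from 50% of each, and all were kept in 1 µM ribociclib with DMSO for 11 days. Ribociclib is an inhibitor of CDK4 and CDK6, the kinases that drive cells through G1 into S phase, and no spheroid without the drug is part of these data. Each condition is 1 library, so nothing below has a replicate, no test was run, and each interval is a 95% interval for counting error only.

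The hypoxia response runs through the HIF transcription factors. With oxygen present, prolyl hydroxylases of the EGLN family mark the HIF alpha subunits, the VHL ubiquitin ligase recognises the mark and the subunits are degraded. Without oxygen they persist, pair with ARNT, and bind promoters at a short core motif, which raises genes for glycolysis, blood vessel growth, mitochondrial turnover and the hydroxylases themselves. Spheroids are often used because their centres can lack oxygen. Most of these genes also answer to other signals, DDIT4 and VEGFA among them through the ATF4 stress pathway.

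To show what kind of promoter these genes have, the 250 bases before each start site were read from RefSeq (GRCh38.p14) for the 8 members with an entry, all but VEGFA and NDRG1. The core motif ACGTG, searched on both strands, lay in that window in 5 of the 8, and in 18.5% of 35116 promoter windows of the same length. The 5 are members with a match at any of their start sites, whereas the 18.5% is a share of windows. PDK1 and KDM3A have a further start site each. Below are the stretches around it, 5′ to 3′ in the direction of transcription, with the motif in capitals. They are chr4:185396659-185396722 (plus strand), chr10:131982032-131982077 (minus strand), chr2:172556053-172556089 (plus strand), chr9:35673890-35673927 (plus strand) and chr10:72273779-72273823 (plus strand), in the order printed.
ANKRD37: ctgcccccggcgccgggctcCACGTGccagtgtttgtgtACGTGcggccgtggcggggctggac
BNIP3: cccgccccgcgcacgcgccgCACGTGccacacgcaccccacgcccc
PDK1: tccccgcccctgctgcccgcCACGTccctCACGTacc
CA9: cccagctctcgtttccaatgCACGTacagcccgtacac
DDIT4: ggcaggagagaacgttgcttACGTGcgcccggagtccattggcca

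ANKRD37 held 3 matches, 2 of which overlap in the palindrome CACGTG, and BNIP3 held 2 in 1 such palindrome. At least 2 matches were present in 7.52% of all windows. ADM, EGLN3 and KDM3A had none in their windows, nor did the other of 2 PDK1 start sites. GCGTG on either strand, a second form of the core that was counted separately and may overlap the first by an end base, was in 32.2% of all windows and in those of ADM, BNIP3, DDIT4 and KDM3A. A match is a run of letters and not a measured binding site.

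The authors' annotation kept 3329 sensitive monoculture cells, 2059 sensitive and 6292 resistant coculture cells and 7557 resistant monoculture cells, with 27622, 34056, 30686.5 and 35443 UMIs per median cell. The sensitive monoculture library stood apart before any of these genes was counted: 51.9% of its barcodes had at least 30% mitochondrial UMIs, against 30.5% in the coculture and 19.0% in the resistant monoculture library. Among annotated cells the median mitochondrial share was 20.9% there and 15.2% to 17.3% in the other populations, and 89.0% of sensitive monoculture cells were called G1 against 49.7% to 55.3%. The luminal markers KRT8, KRT18, KRT19, EPCAM, ESR1, GATA3 and FOXA1 were all detected in each population. Of fibroblast, leukocyte and endothelial markers only COL1A1, COL3A1, CD68 and LYZ reached 50 UMIs over any pair of populations compared. COL3A1 was at 35.2 CPM in sensitive and 0.181 CPM in resistant monoculture, while DCN, LUM, COL1A2 and PDGFRB stood at 0 UMIs in sensitive monoculture. Pairs of libraries shared 34 to 60 barcode sequences, of which 7 to 17 were annotated cells in both.

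ANKRD37 encodes a small ankyrin repeat protein and is a direct HIF target, on chromosome 4 (186317175 to 186321782, plus strand, GRCh37), where it overlaps UFSP2 on the opposite strand. The strand setting used in counting is not given in the sources used here, so whether UFSP2 reads entered its count is not known. Scaled to all UMIs of a population (CPM), it was at 154.9 (152.4 to 157.4) in sensitive monoculture and 29.4 (28.2 to 30.7) in sensitive coculture. In resistant cells it was at 36.4 (35.5 to 37.2) in coculture and 28.8 (28.2 to 29.4) in monoculture. Sensitive monoculture alone was high. The other 3 populations lay close together, the intervals of sensitive coculture and resistant monoculture overlapped, and resistant coculture was slightly above both.

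NDRG1, a stress-responsive gene induced by hypoxia and by differentiation, kept the same order of high and low. Sensitive cells had 27.2 CPM (26.2 to 28.3) in monoculture and 9.01 (8.33 to 9.74) in coculture, and resistant cells 9.10 (8.69 to 9.53) in coculture and 7.91 (7.58 to 8.25) in monoculture. The 2 coculture populations could not be told apart at this depth.

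**Figure D1:**
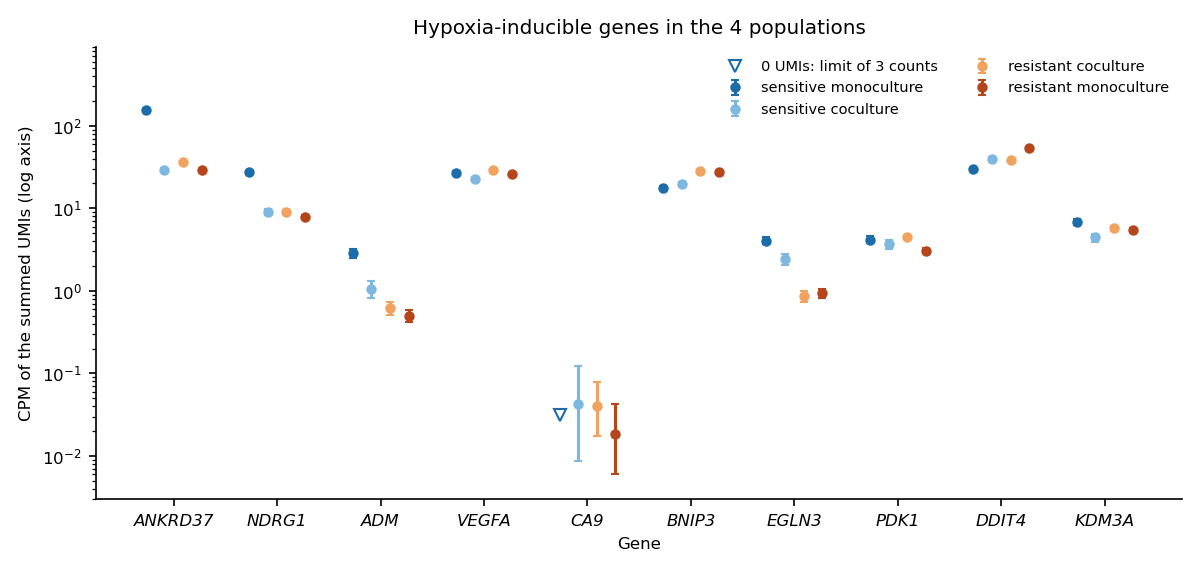
CPM of the summed UMIs of each gene (log axis) in the 4 populations, with exact Poisson 95% intervals for counting error only; the open triangle is the limit of 3 counts for a count of 0. ANKRD37 was at 154.9 CPM in sensitive monoculture and at 28.8 to 36.4 CPM elsewhere, whereas VEGFA stayed between 22.5 and 28.8 CPM in all 4.

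The secreted factors differed from each other. ADM, the vasodilator peptide adrenomedullin (chromosome 11, 10326620 to 10328944, plus strand), was at 2.84 CPM (2.51 to 3.19), 1.04 (0.820 to 1.31), 0.621 (0.517 to 0.741) and 0.498 (0.418 to 0.590) in sensitive monoculture, sensitive coculture, and resistant cells of coculture and of monoculture, from 74 to 273 UMIs each. VEGFA, the main angiogenic growth factor (chromosome 6, 43737921 to 43754224, plus strand), was at 27.1 CPM (26.1 to 28.2), 22.5 (21.4 to 23.7), 28.8 (28.0 to 29.5) and 25.8 (25.2 to 26.4). ADM therefore had its highest level in sensitive monoculture, and VEGFA varied by less than 1.5-fold.

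EGLN3 is a hydroxylase that HIF itself induces, and KDM3A is a HIF-induced histone H3K9 demethylase. EGLN3 was at 4.07 CPM (3.68 to 4.50) and 2.43 (2.08 to 2.82) in sensitive monoculture and coculture, and at 0.867 (0.742 to 1.01) and 0.934 (0.822 to 1.06) in resistant coculture and monoculture. It separated the lineages: both sensitive populations lay above both resistant ones, without overlap of the intervals. The annotation used for positions runs EGLN3 (chromosome 14, 34393433 to 34931980, minus strand) over SPTSSA on the same strand, so reads between them could be assigned differently in other gene models. KDM3A (chromosome 2, 86667770 to 86719839, plus strand) was at 6.87 CPM (6.35 to 7.41), 4.43 (3.95 to 4.95), 5.81 (5.48 to 6.15) and 5.51 (5.23 to 5.79) in the same order, with sensitive coculture lowest.

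The metabolic and mitochondrial members did not follow ANKRD37. PDK1, which blocks entry of pyruvate into the citrate cycle (chromosome 2, 173420101 to 173473397, plus strand), was at 4.19 CPM (3.79 to 4.62), 3.67 (3.24 to 4.14), 4.50 (4.21 to 4.81) and 3.05 (2.84 to 3.26). BNIP3, a receptor for mitophagy (chromosome 10, 133781188 to 133795471, minus strand), was at 17.7 CPM (16.9 to 18.6), 19.5 (18.5 to 20.6), 28.6 (27.9 to 29.4) and 27.4 (26.8 to 28.1), so that both resistant populations exceeded both sensitive ones. CA9, a membrane carbonic anhydrase widely used as a hypoxia marker in carcinoma (chromosome 9, 35673925 to 35681156, plus strand), had 0, 3, 8 and 5 UMIs. In sensitive monoculture it was found in 0 of 3329 cells, which allows a share of up to 0.0901% of cells with a UMI.

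DDIT4, an inhibitor of mTORC1 that hypoxia, ATF4 and glucocorticoids induce (chromosome 10, 74033678 to 74035794, plus strand), went against ANKRD37. In sensitive cells it was at 30.1 CPM (29.0 to 31.2) in monoculture and 40.0 (38.5 to 41.5) in coculture, and in resistant cells at 38.8 (37.9 to 39.6) in coculture and 53.4 (52.5 to 54.2) in monoculture. Sensitive monoculture was its lowest population, the coculture populations overlapped, and resistant monoculture was its highest.

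Between sensitive coculture and sensitive monoculture, ANKRD37 was 5.27-fold lower in coculture (5.03 to 5.52), NDRG1 3.02-fold lower (2.77 to 3.3) and ADM 2.72-fold lower (2.09 to 3.56). On the scale used for calls, log2 of CPM plus a pseudocount of 1, which understates the change of low genes, the ratios were -2.36, -1.49 and -0.91. EGLN3 (-0.57), KDM3A (-0.54), VEGFA (-0.26) and PDK1 (-0.15) were lower by less, and BNIP3 (0.14) and DDIT4 (0.40) were higher. Of the 9 members with at least 50 UMIs, 2 were at least 2-fold lower, where 1.04% of 12327 genes were, and 0 were at least 2-fold higher, where 1.53% were. The median of the 9 was -0.54 beside -0.050 for all genes. At a pseudocount of 10 CPM NDRG1 was at -0.97 and 1 call was left. Since ANKRD37 was chosen on this contrast, its part of the count and of the median carries no weight, here or under other settings. The median without it was not computed.

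The same contrast was examined within the G1 cells, since the populations differ in phase. ANKRD37 was at 161 CPM in G1 cells of sensitive monoculture and at 36.4 CPM in those of sensitive coculture (log2 ratio -2.12), and NDRG1 at 29.7 and 11.8 CPM (-1.26). In cells under 20% mitochondrial UMIs, a limit chosen after the data were seen, the ratios were -2.26 and -1.57.

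In resistant cells the same change of company gave little. ANKRD37 was 1.26-fold higher in coculture than in monoculture (1.22 to 1.30), PDK1 1.48-fold higher (1.34 to 1.63) and NDRG1 1.15-fold higher (1.08 to 1.23), whereas DDIT4 was 1.38-fold lower (1.34 to 1.42). No member was 2-fold different in either direction, and 0.0380% of 13156 genes were. The median of the members was 0.11 beside 0.028 for all genes. FABP7, abundant in sensitive cells, was at 14.4 CPM in resistant coculture and at 0.808 CPM in resistant monoculture. RNA carried over from sensitive cells and transcripts of the resistant cells cannot be told apart in this value, and its part in the ANKRD37 value was not tested.

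Between the monocultures more members passed 2-fold. Relative to sensitive monoculture, resistant monoculture was 5.38-fold lower in ANKRD37 (5.23 to 5.53), 5.69-fold lower in ADM (4.61 to 7.05), 4.36-fold lower in EGLN3 (3.71 to 5.13) and 3.44-fold lower in NDRG1 (3.25 to 3.64). These 4 of 9 members were at least 2-fold lower on the log2 scale (-2.39, -1.36, -1.39 and -1.66), against 4.11% of 12970 genes. At a pseudocount of 10 CPM the ratios of ADM and EGLN3 were -0.29 and -0.36, and 2 calls were left. None was at least 2-fold higher, against 2.17% of genes, though DDIT4 (0.81) and BNIP3 (0.61) were 1.78-fold and 1.55-fold higher. This contrast shares its sensitive monoculture library with the first one, so the 2 sets of values are not independent. ANKRD37 was chosen on its level in that library relative to sensitive coculture, so its part of the 4 of 9 carries no weight either.

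Inside the coculture, where both lineages went through 1 library, 0 of 9 members passed 2-fold on the log2 scale in either direction, and 1.76% of 12774 genes did. ANKRD37 was 1.24-fold higher in resistant cells (1.18 to 1.30), NDRG1 differed by a ratio of 1.01 (0.922 to 1.11), BNIP3 was 1.47-fold higher (1.38 to 1.56) and EGLN3 2.80-fold lower (2.25 to 3.48). On the log2 scale EGLN3 was at -0.88, and it passed 2-fold at a pseudocount of 0.1 CPM.

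**Figure D2:**
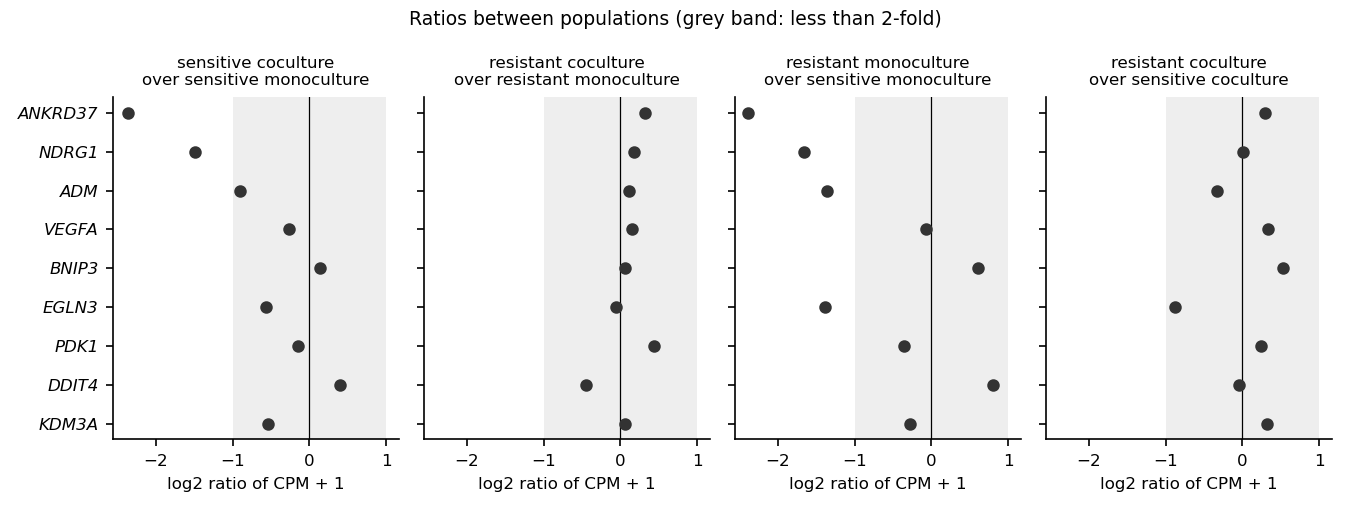
Log2 ratio of CPM plus 1 for the 9 members with at least 50 UMIs in the 4 comparisons; the grey band marks less than 2-fold. ANKRD37 (-2.36 and -2.39) and NDRG1 (-1.49 and -1.66) lie left of the band where sensitive monoculture is the reference and inside it in both other panels.

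The wider HIF program was taken from 2 lists. Of 21 HIF-induced genes of glucose uptake and glycolysis, 19 had enough UMIs between sensitive coculture and monoculture, 0 were 2-fold different, 10 were higher and 9 lower, with a median log2 ratio of 0.01. The largest ratios were those of ALDOC, an aldolase (0.87), SLC16A3, a lactate exporter (0.84), and PFKP, a phosphofructokinase (0.48), all higher in coculture. SLC2A1, the main glucose transporter, was at 43.3 CPM in coculture and 52.1 CPM in monoculture.

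Of 40 further HIF-induced genes 35 were measured, 12 higher and 23 lower in sensitive coculture, with a median of -0.23. At least 2-fold lower was STC2, a stanniocalcin also induced by ATF4 (163 CPM in monoculture and 44.1 in coculture, -1.86), and at least 2-fold higher was MIF, a cytokine (521 and 1207 CPM, 1.21). PPFIA4 followed at 0.94. Of all genes tested, 56.4% were lower.

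The HIF machinery itself was measured for 10 of 12 genes, 7 of them lower in sensitive coculture, 0 by 2-fold, with a median of -0.09. CITED2, a HIF-induced protein that competes with HIF for its coactivators, was at 33.2 CPM in sensitive monoculture and 16.5 in coculture (-0.97), EPAS1, which encodes the HIF2 alpha subunit, at 6.77 and 5.01 (-0.37), and EGLN1, the main oxygen sensor, at 15.2 and 11.6 (-0.36). Of 15 measured ATF4 stress genes 12 were lower in coculture, 0 by 2-fold, with a median of -0.23, led by CEBPB (-0.68), NUPR1 (-0.53) and PPP1R15A (-0.41). For scale, 17 of 25 G2M genes were at least 2-fold higher in sensitive coculture, with a median of 1.16, led by AURKB (1.84), NUSAP1 (1.79) and TOP2A (1.64). Of 6 fibroblast markers 2 had enough UMIs, and they went opposite ways: COL3A1 was at 35.2 CPM in sensitive monoculture and 18.7 in coculture, and COL1A1 at 3.18 and 3.61. Their relation to the members was not tested.

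ANKRD37 and NDRG1 were highest in G1 in every population. In sensitive monoculture ANKRD37 was at 161 CPM in G1, 137 in S and 98.5 in G2M, and NDRG1 at 29.7, 13.2 and 10.9. In resistant monoculture ANKRD37 was at 39.6, 19.5 and 18.4 CPM, and NDRG1 at 10.2, 5.77 and 5.96. No other member was highest in G1 in all 4 populations. DDIT4 was highest in G2M and lowest in S in each population, for example 40.5 and 21.9 CPM in sensitive monoculture, and VEGFA was lowest in S, with 14.7 CPM there.

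By the authors' clusters, given as a description since all genes shaped them, the sensitive monoculture divided the members among different groups of cells. ANKRD37 was highest in cluster 4, the largest (1945 cells), at 193 CPM, and lay at 144 in cluster 3, 83.1 in cluster 8, 78.2 in cluster 7 and 64.7 in cluster 12. NDRG1 was highest in cluster 12 (156 cells), at 55.2 CPM, where ANKRD37 was lowest, and lay at 34.6 in cluster 8, 28.5 in cluster 4 and about 10.1 and 10.2 in clusters 3 and 7. The 84 sensitive coculture cells that fell in cluster 4 had 87.2 CPM of ANKRD37 and 22.5 of NDRG1, against 32.2 and 9.68 in the main coculture cluster 3. In resistant monoculture ANKRD37 ran from 12.2 to 38.5 CPM over 9 clusters. DDIT4 ran from 31.3 to 93.5 CPM there, highest in clusters 6 and 5, and from 27.4 to 44.7 CPM in sensitive monoculture.

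Cluster 8 of the sensitive monoculture (681 cells) carried a different part of the set. Compared with cluster 4 it had more EGLN3 (10.4 against 3.18 CPM), VEGFA (51.5 against 21.6), ADM (5.99 against 2.33) and KDM3A (12.0 against 6.12), and less ANKRD37 (log2 ratio -1.21). EGLN3 (1.45), VEGFA (1.22) and ADM (1.07), 3 of 9 members, were at least 2-fold higher, where 1.38% of 11450 genes were. The HIF glycolysis list was on balance lower there, with a median of -0.22 beside 0.06 for all genes, and SLC2A1 was at -0.76. The further HIF-induced genes had a median of -0.09. The nuclear RNAs MALAT1 (0.83) and NEAT1 (0.74) were also higher in cluster 8, whose median cell held 21423 UMIs against 29523 in cluster 4, while their mitochondrial medians were both 21.3%. The part of nuclear RNA content in these values was not tested.

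**Figure D3:**
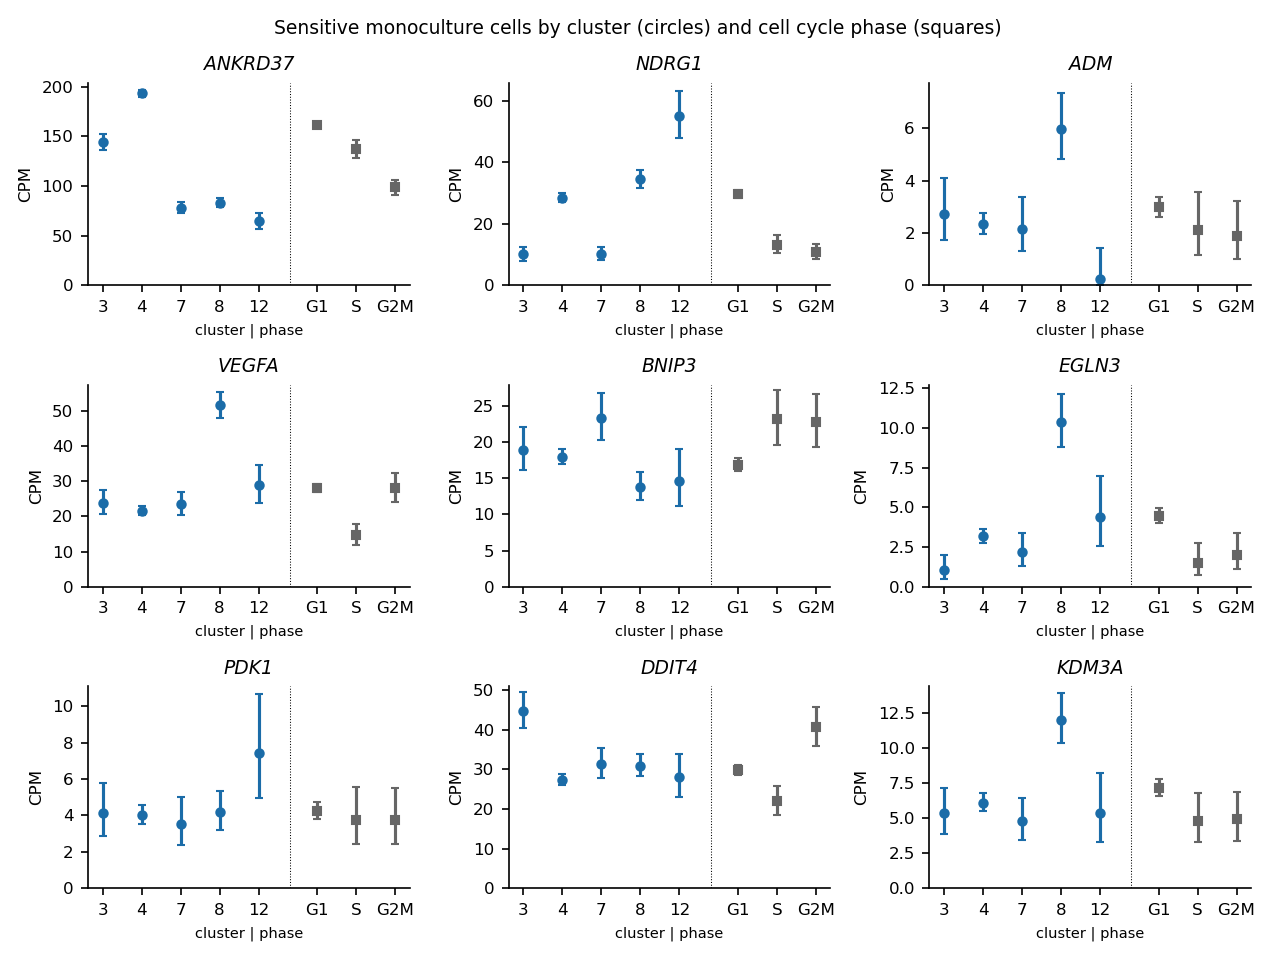
CPM of the 9 detected members in sensitive monoculture cells by cluster (circles, clusters of at least 50 cells) and by phase (squares), each axis from 0, with exact Poisson 95% intervals for counting error only. Cluster 4 was highest for ANKRD37 (193 CPM), cluster 12 for NDRG1 (55.2), and cluster 8 for ADM, VEGFA, EGLN3 and KDM3A.

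Whether single cells carry the genes together was asked with each cell thinned to 10000 UMIs, which left out 3, 0, 2 and 2 cells of the 4 populations. For each member, the 10% of cells with the most of the other 9 (sum of the natural log of 1 plus UMIs) were compared with the rest, so the gene measured was not in the score. Cells with equal scores at the cut were ordered at random. In sensitive monoculture ADM was at 5.71 CPM in the top cells and 3.01 in the rest (ratio 1.9, 1.09 to 3.14), NDRG1 at 45.9 and 29.2 (1.57, 1.31 to 1.87), ANKRD37 at 185 and 148 (1.25, 1.15 to 1.36) and DDIT4 at 35.7 and 29.0 (1.23, 1.01 to 1.49). VEGFA (0.979), BNIP3 (0.932) and PDK1 (0.637) were not higher. The median over the 9 members was a log2 ratio of 0.29.

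In the other populations the medians were -0.01 (sensitive coculture), 0.18 (resistant coculture) and 0.16 (resistant monoculture). In sensitive coculture 0 of 8 measured members had an interval above 1, and ANKRD37 (0.702, 0.504 to 0.955) and DDIT4 (0.763, 0.586 to 0.978) had theirs below it. In resistant coculture NDRG1 (1.65, 1.30 to 2.07) and KDM3A (1.55, 1.15 to 2.06) lay above 1 and DDIT4 (0.843, 0.729 to 0.971) below it, and in resistant monoculture ADM (2.54, 1.17 to 5.05) and KDM3A (1.61, 1.21 to 2.10) lay above 1. The resistant monoculture median was -0.48 with cells thinned to 5000 UMIs, and the sensitive monoculture median was -0.02 in cells under 20% mitochondrial UMIs. No measured member was 2-fold higher on the log2 scale in any population. ADM in resistant coculture, left out for having 45 UMIs (14 in the top cells), had a ratio of 4.06 (2.0 to 7.87), and in the top 5% of sensitive monoculture cells ADM reached a log2 ratio of 1.24. The same measure on the 25 G2M genes, which cycling cells carry together, gave medians of 3.31, 2.15, 2.09 and 2.17 with 24 genes at least 2-fold higher in each population, so the measure does return a subset of that kind. Those genes are more abundant, at 1126 CPM in sum in sensitive monoculture against 275 CPM for the members. On the 15 measured ATF4 genes it gave 0.87, 0.39, 0.74 and 0.80. On the HIF glycolysis targets it gave 0.30, 0.22, 0.22 and 0.15, with an interval above 1 for 10 of 18, 7 of 18, 10 of 19 and 10 of 19 measured genes and below 1 for 3, 0, 0 and 0. On the further HIF-induced genes it gave 0.15, 0.19, 0.08 and 0.07, with 6 of 32, 6 of 29, 10 of 34 and 7 of 34 above 1 and 2, 1, 1 and 3 below, and 0 genes of either HIF list were 2-fold higher. The share of all genes with an interval clear of 1 was not computed, so these counts, and those of the members, have no background.

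**Figure D4:**
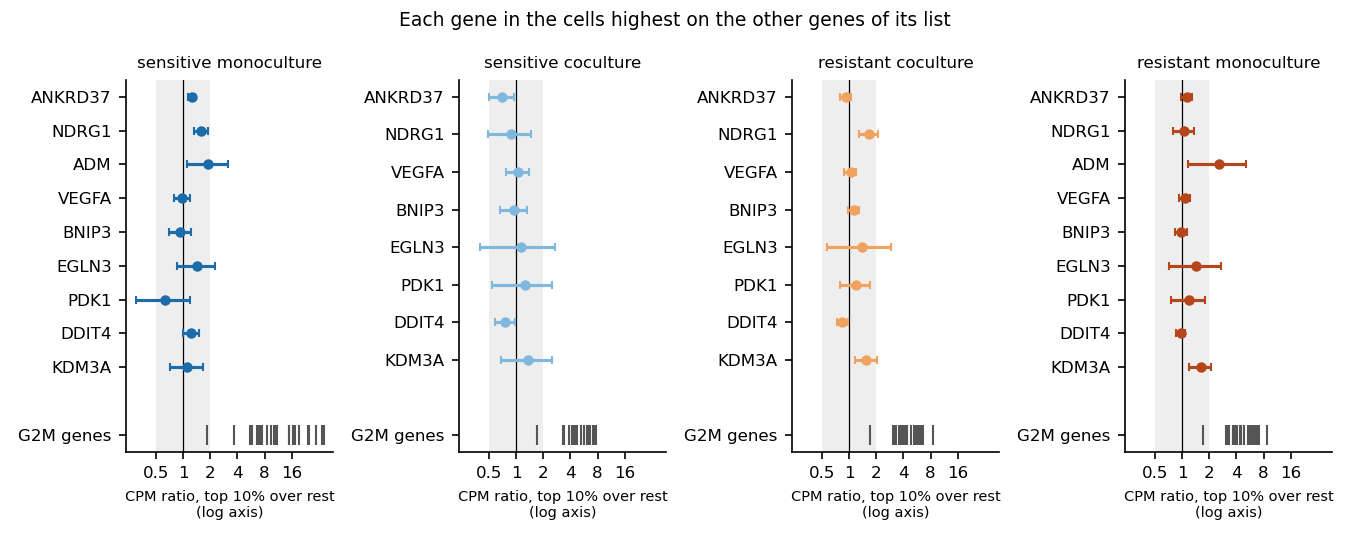
Ratio of CPM (log axis) between the 10% of cells highest on the other members and the remaining cells, for each member with at least 50 thinned UMIs, with 95% counting intervals; ticks in the bottom line are the 25 G2M genes measured the same way. Median log2 ratios by population were -0.01 to 0.29 for the members (-0.48 in resistant monoculture at 5000 UMIs) and 2.09 to 3.31 for the G2M genes.

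The members seen per cell were also counted. Such counts rise with the levels of the members, and the counts to be had without any co-expression were not computed. At 10000 UMIs a sensitive monoculture cell held 2.82 member UMIs on average, and 1.39 to 1.58 in the other populations. At least 5 different members were seen in 19 of the 3326 monocultured sensitive cells (0.571%, 0.344 to 0.891 by the exact binomial method) and in 2 of the 2059 cocultured ones (0.0971%). Resistant cells gave 16 of 6290 in coculture (0.254%) and 11 of 7555 in monoculture (0.146%). No cell had 7 or more, which allows a share of up to 0.0902% of sensitive and 0.0397% of resistant monoculture cells. Over the 36 pairs of 9 members, the Pearson correlation across cells had a median of 0.008, -0.003, 0.008 and 0.007, and the highest pair was ANKRD37 with NDRG1 in sensitive monoculture, at 0.096. G2M pairs had medians of 0.246 to 0.300. In sparse counts correlations this weak are no finding, and annotated cells with the whole set raised together were not detectable at this depth. The authors kept only cells below a limit on mitochondrial UMIs, so barcodes above it were outside these per-cell measures.

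Cells in the top 10% by the whole score were spread over the sensitive monoculture: 11.5% of cluster 4 (10.1 to 13.0), 10.2% of cluster 8 (7.99 to 12.7), 7.12% of cluster 3, 4.49% of cluster 12 and 4.31% of cluster 7. ANKRD37, highest in cluster 4, weighs most in the score of that population. In sensitive coculture top cells made up 20.2% of cluster 4 (12.3 to 30.4) and 7.78% of cluster 7. Their share ran from 2.07% of cluster 10 to 14.9% of cluster 9 in resistant coculture. In resistant monoculture it ran from 3.38% of cluster 10 to 14.6% of cluster 5. Top cells of sensitive monoculture were called G1 in 93.1% against 88.5% of the rest, and those of resistant monoculture in 59.5% against 49.0%. In resistant coculture 142 of 629 top cells, and in resistant monoculture 183 of 756, were drawn at random from 326 and 381 cells tied at the cut. In the sensitive populations all cells tied at the cut were in the top. Genes outside the set that were at least 2-fold higher in the top cells made up 0.122% of those tested in sensitive monoculture and 0.120% in coculture, and for resistant cells 0.0266% in coculture and 0.0176% in monoculture. Among the 40 further HIF-induced genes the largest ratios were those of STC2 (0.67), CCNG2 (0.45) and KDM4B (0.34) in sensitive monoculture. They were GBE1 (1.02), PLOD2 (0.83) and STC2 (0.55) in sensitive coculture, IGFBP3 (1.37), STC2 (0.41) and P4HA2 (0.19) in resistant coculture, and IGFBP3 (0.93), ANKZF1 (0.40) and STC2 (0.38) in resistant monoculture. STC2 was thus among the leading 3 in all 4. The medians of the list were 0.04, -0.008, 0.001 and 0.07 in the same order, and in sensitive coculture 13 of 29 measured genes were higher, 1 of them by 2-fold, and 2 were 2-fold lower. The HIF glycolysis targets had medians of -0.03, 0.01, -0.02 and 0.004. Of the 15 measured ATF4 genes 8, 9, 15 and 14 were higher in the top cells, 0 of them by 2-fold, with medians of 0.03, 0.03, 0.27 and 0.27, beside medians of all genes outside the set of -0.001, -0.0006, 0.01 and 0.01. DDIT4, which ATF4 also induces, is part of the score. It was the member seen in the most thinned cells of sensitive coculture (29.9%), resistant coculture (27.8%) and resistant monoculture (35.7%). How far the top cells and the ATF4 values there follow DDIT4 alone was not tested.

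Genes with a mean of at least 0.1 UMI per thinned cell were ranked by how closely their counts followed the summed members across cells. The leading genes were on neither HIF list used here, and HIF-induced genes below that mean could not enter the ranking. In sensitive monoculture the sum weighs ANKRD37 most. It had a UMI in 49.5% of thinned cells and up to 32 per cell, and the next member, VEGFA, in 26.2% and up to 7. How far the correlations below follow ANKRD37 alone, or in the other populations DDIT4 alone, was not tested. In sensitive monoculture they were FABP7 (r = 0.222), BASP1 (0.210), DBI (0.190), HERPUD1 (0.182) and ALDH3B2 (0.176), over 3326 cells of 1 library and 6956 genes. FABP7, a fatty acid binding protein, was at 2820 CPM in the top cells and 1153 in the rest. In sensitive coculture the leading genes were VARS (0.093), RARRES1, SNAP23, ANXA11 and NEAT1. In resistant coculture they included ID1 (0.090), ID3, HERPUD1 and JUP, and in resistant monoculture they were HSPB1 (0.111), NUPR1, ID3, ID1 and PTMA, none above 0.111. NUPR1 is on the list of ATF4 stress genes.

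Finally the genes were followed over all barcodes, including those outside the authors' annotation. VEGFA, as CPM over non-mitochondrial UMIs, was at 28.2 in sensitive monoculture barcodes under 10% mitochondrial UMIs, 29.5 from 10% to 20%, 38.5 from 20% to 30%, 65.1 from 30% to 50% and 103.5 at 50% or more. In the coculture it ended at 108.6 and in the resistant monoculture at 113.4. NDRG1, ADM, PDK1 and KDM3A were likewise highest at 50% or more in all 3 libraries, while BNIP3 went from 27.6 to 9.75 in sensitive monoculture. ANKRD37 was highest between 20% and 30%, at 219.6 in sensitive monoculture.

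Comparing barcodes of at least 50% with those under 30%, PDK1, VEGFA, ADM, NDRG1 and KDM3A, 5 of 9 members, were at least 2-fold higher in each library. BNIP3 was at least 2-fold lower in each (-1.12, -1.19 and -1.30 in the sensitive monoculture, coculture and resistant monoculture library), and ANKRD37 in the sensitive monoculture library (-1.13). Of all genes 30.0%, 32.9% and 32.7% were at least 2-fold higher in these libraries, in that order, and 7.75%, 3.51% and 5.91% at least 2-fold lower. Member medians were 1.10, 1.27 and 1.15 beside 0.54, 0.63 and 0.58 for all genes, and MALAT1 was at 1.85, 1.73 and 2.29. The HIF glycolysis targets had medians of 0.02, 0.17 and -0.14, below those of all genes, and the further HIF-induced genes 0.75, 1.03 and 0.80, above them. These barcodes held 4914.5 to 6355 non-mitochondrial UMIs in the median against 19258.5 to 28886. Loss of cytoplasmic RNA and a response of the cells cannot be told apart here. Whether single barcodes of at least 50% carry the 5 raised members together was not tested.

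**Figure D5:**
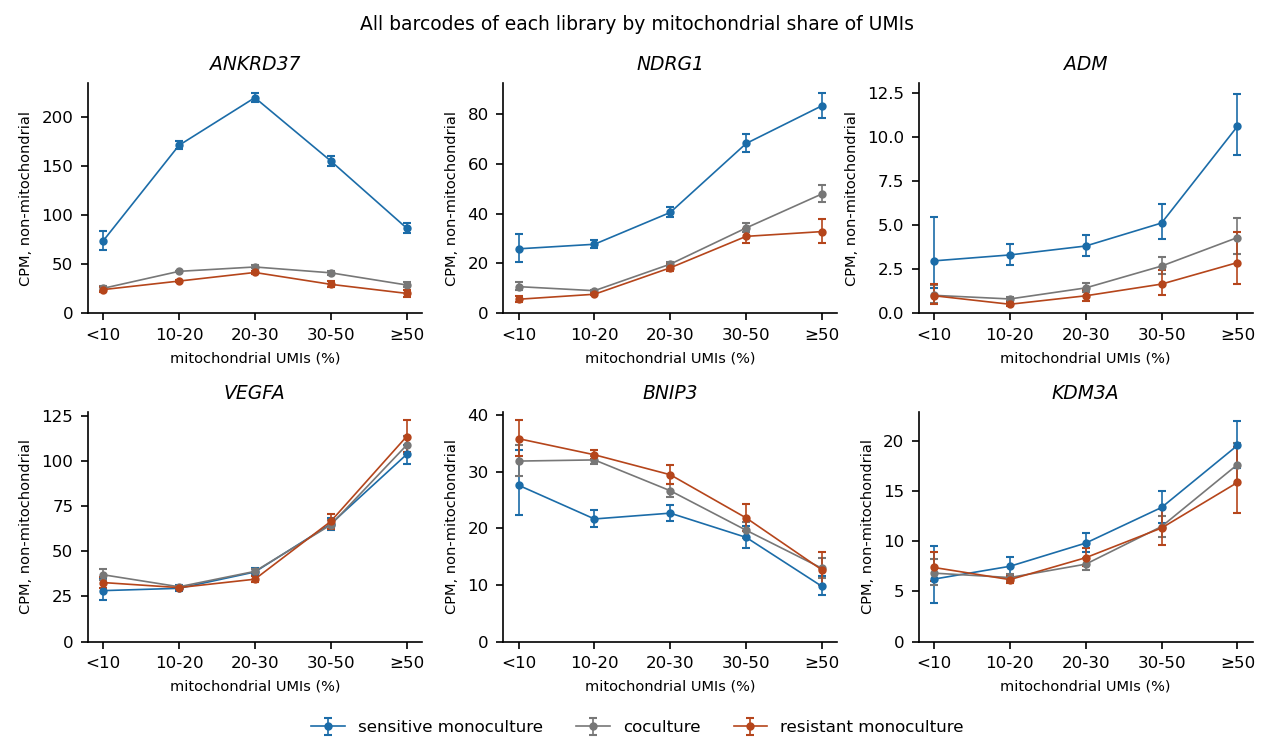
CPM over non-mitochondrial UMIs of 6 members in all barcodes of the 3 libraries, by mitochondrial share of UMIs, each axis from 0, with exact Poisson 95% intervals for counting error only. VEGFA reaches 103.5 to 113.4 at 50% or more in all 3 libraries, BNIP3 is lowest there, and ANKRD37 is highest between 20% and 30%.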

How the data were processed

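Single-cell RNA was measured in 3 libraries, 1 per condition, which the samples' titles name. Per the methods, cells of the harvested spheroids were frozen alive, then thawed and washed before loading. The part of this handling in the values was not tested. Per the methods and labels, the authors aligned reads to GRCh37 and counted UMIs with Cell Ranger 3.0.2, and deposited raw, unscaled UMI counts for every gene in every barcode. The authors' deposited annotation gives each kept cell's population, phase, cluster, UMI count, S and G2M score and mitochondrial percent, made with Seurat. Genes without a symbol (0.523% to 0.591% of UMIs) were left out. UMIs were summed over annotated cells per population (70896822 to 270891547 UMIs) and given as CPM. Sums carry exact Poisson and shares exact (Clopper-Pearson) intervals. Where no UMI was seen, 3 counts are the limit. A call is at least 2-fold on log2(CPM + 1) with at least 50 UMIs over the populations compared. Cells are not replicates, so there is no test and no p-value.

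Per-cell measures used cells thinned to 10000 UMIs without replacement (Python 3.11.15, numpy 2.4.6, scipy 1.17.1), and the ratio and left-out-member steps were tested on simulated data. TMM factors (edgeR 4.0.16, R 4.3.3) served as scaling only. Gene positions use a GENCODE release carried over to GRCh37 coordinates, newer than the gene models behind the counts. No doublet caller was run here, and leaving out the 5% of cells with the most UMIs was an alternative. The members and lists were chosen with earlier results of these data known. Genes named outside the set are, from each list, the 3 with the largest log2 ratio in sensitive coculture over monoculture, per population the 5 closest in correlation to the member sum (1 of them is not reported here), and the 3 HIF-induced genes with the largest ratio in the top cells. SLC2A1, FABP7 in the free RNA check, COL3A1, COL1A1, MALAT1 and NEAT1 were named after their values were seen.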

Additional observations from a re-analysis of the deposited data

Results flagged for a closer look

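For 4 members the change from monoculture to coculture had opposite signs in the lineages, with counting intervals that left out a ratio of 1 on both sides. The log2 ratio was -2.36 in sensitive and 0.33 in resistant cells for ANKRD37, -1.49 and 0.18 for NDRG1, -0.26 and 0.15 for VEGFA, and 0.40 and -0.45 for DDIT4. ANKRD37 was chosen on the sensitive contrast, so its value there is a description and its place among the 4 carries no weight. Each difference was not tested, since each condition is 1 library, and both lineages' coculture values come from the same library.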

How the results depend on the processing

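No paired analysis was possible because each condition is 1 library and no test was run. ANKRD37 in sensitive coculture over monoculture ran from -2.45 to -2.07 over all alternatives, and NDRG1 from -1.58 to -0.97. Of the summary values under other settings 196 kept their size and 16 moved, and of the single-gene values 376 kept theirs, 88 moved and 4 turned from a ratio whose counting interval had left out 1. Settings that changed only the UMI minimum or the fold limit could not move a single-gene value, and the fold limit could not move a median. Taking resistant coculture RNA out of sensitive coculture could not move comparisons without sensitive coculture. Such values are among those that kept their size. Ratios whose interval held 1 also crossed it: ADM, EGLN3 and KDM3A in resistant coculture over monoculture, and NDRG1 between lineages in coculture. More values moved with a pseudocount of 10 CPM than with any other setting. There, sensitive coculture over monoculture had a member median of -0.19, 1 member at least 2-fold lower and -0.10 for the further HIF-induced genes, and resistant over sensitive monoculture had -0.12, 2 members and -0.19. At 0.1 CPM, 1 member was 2-fold lower between the lineages in coculture. With TMM factors, BNIP3 turned to -0.010 and the glycolysis list went to -0.12 in resistant coculture over monoculture. Between the monocultures VEGFA turned to 0.037, the glycolysis list went to 0.20 and the further HIF-induced genes to -0.18. VEGFA there also turned to 0.031 with median-of-ratios factors and to 0.025 in cells under 20% mitochondrial UMIs, a limit added after the data were seen. In G1 cells the glycolysis list was at -0.033 in resistant coculture over monoculture. With at least 2 UMIs of a cell's own transgene, 1 member was 2-fold higher between the monocultures and the member median between lineages in coculture was 0.069. At a 1.5-fold limit, 2 members were higher between the monocultures and 1 lower between the lineages in coculture. Thinned to 5000 UMIs, the left-out-member median of resistant monoculture was -0.48. The cause of these changes was not tested, apart from the damping of low genes that a pseudocount of 10 builds in. Depth limits ADM, CA9 and EGLN3 most, and a small or weakly raised group of cells could be missed. Barcodes outside the authors' annotation were not part of the per-cell measures.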
